A study of Mus musculus with 9 samples.

Results

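The tripartite motif (TRIM) genes were taken as every gene of the deposited tables whose symbol is Trim followed by a number and an optional letter. This rule found 68 of the 50686 genes. TRIM proteins carry a RING domain, B-box zinc fingers and a coiled coil in this order, and most act as E3 ubiquitin ligases through the RING domain, while the C-terminal domain sets what they bind. Many members are part of the antiviral defence, and a group of them is itself induced by interferon. The other members serve unrelated tasks such as transcriptional repression, microtubule organisation or protein turnover in muscle and neurons.

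mRNA was sequenced from BCR/ABLp185+ cell lines, which are mouse bone marrow cells transformed by the BCR/ABL oncogene, on the C57BL/6N background. The first genotype was wt, the second lacked Stat5a (Stat5a-/-) and the third lacked Stat5b (Stat5b-/-), the genes of the transcription factors STAT5A and STAT5B. All lines carried BCR/ABL and were grown in the same medium, and no interferon is named among the treatments. There was 1 cell line of each genotype with 3 technical replicates, so every test below compares 3 cell lines, and its p measures the spread between libraries. Libraries held between 11948136 and 19016396 counted reads. The level of Stat5a was 43.1 ± 6.35 normalized CPM (CPM, counts scaled to a common library total after TMM, SD, n = 3) in wt and 12.4 ± 1.02 in Stat5a-/- libraries. Stat5b stood at 106 ± 1.96 normalized CPM in wt and 63.4 ± 7.72 in Stat5b-/- libraries, so reads remained on both targeted genes. Libraries also held markers that moved between the lines. The summed level of 16 T-cell markers ranged from 863 to 1175 normalized CPM in wt, from 1514 to 1750 in Stat5a-/- and from 1906 to 2715 in Stat5b-/- libraries, and none of the 16 was at 0. The summed level of 10 B-lineage markers ranged from 4724 to 5019 in wt, from 6449 to 7153 in Stat5a-/- and from 5743 to 6586 in Stat5b-/- libraries, while the recombinase gene Rag1 lay between 63.4 and 67.1 normalized CPM in wt and under 1 in the other lines. The sum hides opposite moves. Against wt, 5 of the 10 were higher and 3 lower in Stat5b-/-, where 24.2% and 22% of all genes tested were. In Stat5a-/- 6 were higher and 2 lower, where 19.8% and 16.3% of all genes tested were. For 10 myeloid markers the ranges of the summed level were 4.79 to 7.63, 7.57 to 9.72 and 12.7 to 15.9. Of them 3 passed the low-count filter, while the other 7 lay at or under 0.556 in every library. All 3 were higher in Stat5b-/- than in wt, where 24.2% of all genes tested were. Among the 3, Fcgr3 and Csf1r had few reads in wt (6 to 18 and 7 to 14), near the limit of the filter. The count may thus follow in part from the filter. Fewer cells of a type and less RNA per cell cannot be told apart in such bulk libraries. The part of these markers in the results below was not tested.

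Of the 68 members, 39 passed the filter on low counts and 29 did not. No read was counted on 13 members in any library, among them Trim10, Trim29, Trim31, Trim40 and the muscle genes Trim54 and Trim55. The other 16 had at most 23 reads in any library. Among them, Trim34b had 1, 4 and 0 reads in wt, 8, 20 and 23 in Stat5a-/- and 2 in each Stat5b-/- library. Chromosome 7 held 16 members and chromosome 11 held 11. Per kb of exon length, the highest mean level over all libraries was that of Trim28 (KAP1, the corepressor of KRAB zinc finger proteins) at 158 normalized CPM per kb, followed by Trim27 at 35.2, Trim30a at 29.4, and Trim35 and Trim44 at 28.5 each. Trim30a, Trim35 and Trim44 lay close together in the mean but not within a line, since Trim30a stood at 16.5 per kb in wt and 43.9 in Stat5b-/- cells while Trim35 went from 41.0 to 17.4.

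Because the rises gathered on interferon-inducible members, their promoters are shown first. The interferon-stimulated response element (ISRE), a promoter element of interferon-induced genes, was searched as a pair of GAAA runs with any 2 bases between them, on both strands, with overlapping matches allowed, in windows from 250 bases before to 50 bases after RefSeq start sites (GRCm38.p6). A list of 17 members known to be raised by interferon was used, of which 13 were tested, and promoters of 12 of these 13 genes were matched. The element was present at 8 of the 12 genes, Trim5, Trim12a, Trim12c, Trim21, Trim26, Trim30a, Trim30d and Trim34a, against 3.99% of all 27025 genes with a promoter. Trim25, Trim30b, Trim30c and Trim56 had no match in their windows, and Trim14 had no matched promoter. Of 17 other tested members with a promoter, 1 held the element, Trim2, and of 24 members below the filter 0 did. The gamma-activated site, to which STAT5 dimers bind, was searched as TTCNNNGAA and was present in 10.4% of the 67 promoters of members against 8.3% of all promoters. It was found at 1 of the 12 genes, Trim30c, at Trim45 and Trim46 among the 17 others, and at 3 of the 24 members below the filter. The promoters of neighbouring genes on chromosome 7 are near copies, so their matches are not independent. Windows of members with an ISRE follow, each 5′ to 3′ on the strand of its gene, with the bases of the element in capitals. They stand for the genes with the element near the start (Trim21, Trim34a), for the Trim5 and Trim12 group, for the Trim30 group, and for Trim26 outside chromosome 7.
Trim21, chr7:102565433-102565732, minus strand: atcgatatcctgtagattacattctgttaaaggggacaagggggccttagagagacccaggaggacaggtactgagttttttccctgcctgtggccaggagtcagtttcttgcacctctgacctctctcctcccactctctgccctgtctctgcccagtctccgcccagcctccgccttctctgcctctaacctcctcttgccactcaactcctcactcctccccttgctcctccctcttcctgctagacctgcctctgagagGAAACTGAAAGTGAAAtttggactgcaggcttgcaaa
Trim34a, chr7:104244207-104244506, plus strand: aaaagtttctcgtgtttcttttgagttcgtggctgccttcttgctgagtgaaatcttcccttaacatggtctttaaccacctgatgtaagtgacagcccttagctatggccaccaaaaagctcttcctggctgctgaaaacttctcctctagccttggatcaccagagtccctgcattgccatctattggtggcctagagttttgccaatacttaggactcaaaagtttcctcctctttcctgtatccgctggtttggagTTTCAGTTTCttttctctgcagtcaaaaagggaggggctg
Trim12a, chr7:104315446-104315745, minus strand: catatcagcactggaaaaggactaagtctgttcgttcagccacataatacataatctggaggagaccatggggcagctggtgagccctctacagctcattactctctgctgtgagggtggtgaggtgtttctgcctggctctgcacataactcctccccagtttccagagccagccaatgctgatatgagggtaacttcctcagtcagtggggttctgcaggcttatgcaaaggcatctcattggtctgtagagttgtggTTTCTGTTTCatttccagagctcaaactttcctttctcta
Trim5, chr7:104288057-104288356, minus strand: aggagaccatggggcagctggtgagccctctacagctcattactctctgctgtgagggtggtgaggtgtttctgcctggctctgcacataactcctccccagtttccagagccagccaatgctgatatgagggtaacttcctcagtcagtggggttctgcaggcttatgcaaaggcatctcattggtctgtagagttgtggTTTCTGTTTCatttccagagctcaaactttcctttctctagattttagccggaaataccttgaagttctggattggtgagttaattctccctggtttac
Trim30d, chr7:104507800-104508099, minus strand: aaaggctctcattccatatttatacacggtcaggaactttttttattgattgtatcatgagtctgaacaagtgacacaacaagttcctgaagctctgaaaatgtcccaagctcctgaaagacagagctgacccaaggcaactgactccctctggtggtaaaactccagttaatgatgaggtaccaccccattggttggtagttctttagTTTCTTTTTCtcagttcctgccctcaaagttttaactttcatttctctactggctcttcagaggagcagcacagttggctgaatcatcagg
Trim26, chr17:36836896-36837195, plus strand: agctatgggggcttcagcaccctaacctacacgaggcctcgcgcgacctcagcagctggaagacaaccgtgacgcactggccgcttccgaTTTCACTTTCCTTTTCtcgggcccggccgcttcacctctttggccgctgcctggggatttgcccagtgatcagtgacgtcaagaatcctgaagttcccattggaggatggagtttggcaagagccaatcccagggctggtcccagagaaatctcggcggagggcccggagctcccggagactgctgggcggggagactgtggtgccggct
In Trim21, capitals cover 2 overlapping matches that begin 14 and 20 bases after the start site. The match lay at 11 bases after the start in Trim34a and in Trim12a, 49 before it in Trim5 and 41 before it in Trim30d, and the pair of matches of Trim26 began 160 and 154 bases before it. A match describes these letters and not a bound site.

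In Stat5b-/- cells, the tested TRIM genes known to be raised by interferon rose, Trim30d by the most, and Trim46, Trim35 and Trim16 fell by the most among the 9 members that fell. Of the 39 tested members, 15 were higher and 9 lower than in wt (38.5% and 23.1%) where calls were made at a p under 0.05 after Benjamini-Hochberg adjustment over all genes, and 15 were not called. Over all 13852 genes tested, 24.2% were higher and 22% lower by the same rule, so the share of members that fell lay near that of all genes. The median log2 fold change of the members was 0.09, against 0.02 over all genes. With an absolute log2 fold change above 1 as well, 9 members were higher and 3 lower, where 10.6% and 8.44% of all genes passed.

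All 13 tested members of the interferon list rose in Stat5b-/- against wt, with a median log2 fold change of 1.28. Of these, Trim30b and Trim30c had few wt reads and passed the low-count filter through the mutant libraries in which they are higher, so their place among the 13 follows in part from the filter. The 13 included each of the 9 members that rose past the limit of 1 on the log2 scale. Their summed level ranged from 274 to 323 normalized CPM in wt, from 425 to 469 in Stat5a-/- and from 548 to 645 in Stat5b-/- libraries, so the lines did not overlap. The count of 13 stood under every alternative in which it was recounted, which leaves out the test against a log2 fold change of 1. The list was drawn from background knowledge with earlier results of these data known, and it is described here beside the 24.2% of all genes that rose. The 2 remaining risers were Trim24 and Trim39.

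**Figure D1:**
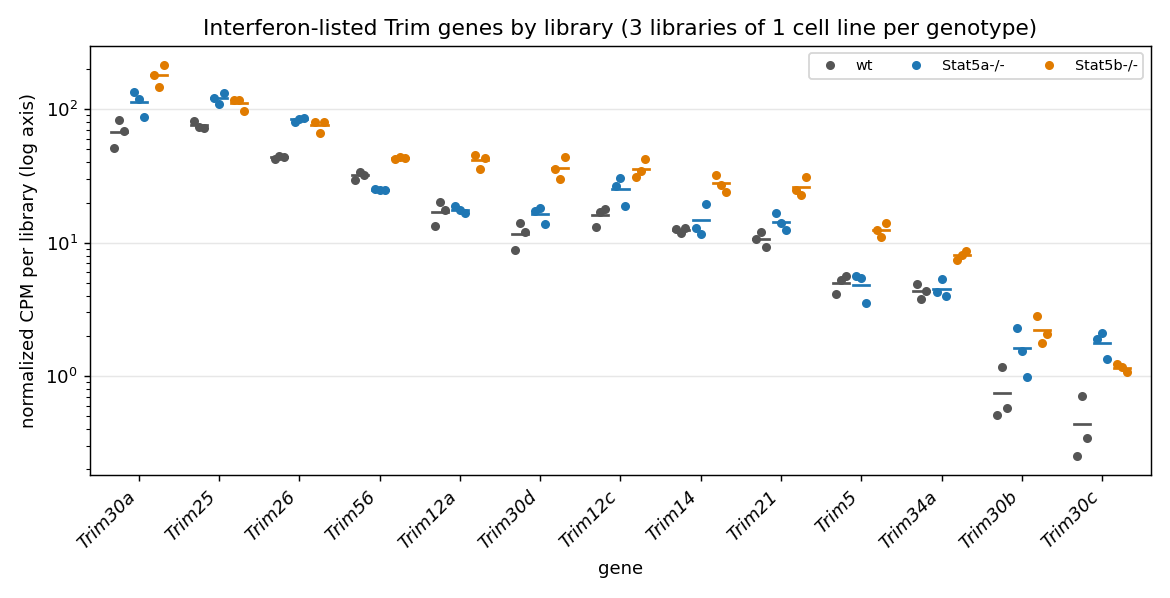
Normalized CPM of the 13 tested interferon-listed members in each library on a log axis, with points for the 3 libraries of each line (wt grey, Stat5a-/- blue, Stat5b-/- orange) and a bar at their mean. Every Stat5b-/- point lies above every wt point of the same gene, while the Stat5a-/- points of 6 genes, Trim5, Trim12a, Trim14, Trim30b, Trim30d and Trim34a, overlap those of wt.

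A cluster on chromosome 7, from 104218793 to 104507849 of GRCm38, holds 10 members in 289 kb, from Trim6 to Trim30d. Of its 18 annotated genes, the 8 that are not members had too few reads to be tested. Trim6 and Trim34b were also below the filter, and the other 8 members all rose in Stat5b-/- cells, while 4 rose in Stat5a-/- cells, where 24.2% and 19.8% of all genes rose. Trim30b and Trim30c are among the 8 and among the 4. They passed the filter through the mutant libraries, so both counts follow in part from the filter. Trim30d (ENSMUSG00000057596.13, minus strand, 104470014 to 104507849) had 8.88, 14.1 and 12.1 normalized CPM in the wt libraries, 17.2, 18.1 and 13.8 in Stat5a-/- and 35.4, 30.2 and 44.1 in Stat5b-/-. All Stat5b-/- values exceeded all others, and 1 Stat5a-/- library lay within the range of wt. Stat5b-/- exceeded wt by 1.63 ± 0.19 on the log2 scale (SE, adjusted p = 1.08e-05). The Stat5a-/- value of 0.48 ± 0.19 missed the limit (adjusted p = 0.0659) but passed it with a GC correction (0.63, adjusted p = 0.000459) and without wt replicate 2, Stat5a-/- replicate 3 or Stat5b-/- replicate 3 (adjusted p = 0.0308 to 0.043). It also passed with no filter on low counts (0.46, adjusted p = 0.0188). Trim30a, a negative regulator of NF-κB signalling downstream of Toll-like receptors, had the highest level of the cluster. It measured 51.3, 83.0 and 69.1 normalized CPM in wt, 136, 119.6 and 87.1 in Stat5a-/- and 181, 147 and 213 in Stat5b-/- libraries, an order in which the lines did not overlap. It rose by 1.41 ± 0.20 in Stat5b-/- (adjusted p = 6.69e-05) and by 0.75 ± 0.20 in Stat5a-/- (adjusted p = 0.0085). The T-cell gene Cd3e measured 127, 175 and 159 in wt, 221, 237 and 196 in Stat5a-/- and 377, 265 and 366 in Stat5b-/- libraries, so that the lowest library of wt, of Stat5a-/- and of Stat5b-/- was the same for both genes. The same libraries were also lowest for Trim59, a member not called in any comparison, at 74.7, 64.4 and 82.8 normalized CPM. The match is thus not particular to Trim30a and Cd3e, and its cause was not tested.

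The weakly expressed neighbours moved with them. Trim30b had 8 to 23 reads in the wt libraries, 11 to 33 in Stat5a-/- and 26 to 41 in Stat5b-/-. Its log2 fold change was 1.52 ± 0.37 in Stat5b-/- (adjusted p = 0.00471) and 1.10 ± 0.39 in Stat5a-/- (adjusted p = 0.0454). The second call was lost with DESeq2 (adjusted p = 0.0669), with the 2 genotypes alone (adjusted p = 0.0503), with the replicate block (adjusted p = 0.0648) and without any of 5 libraries, wt replicates 1 and 3, Stat5a-/- replicates 1 and 2 and Stat5b-/- replicate 2, where the log2 fold change ran from 0.71 to 1.13. Trim30c was the tested cluster member with a larger value in Stat5a-/- cells, at 4, 14 and 6 reads in wt, 27, 26 and 15 in Stat5a-/- and 18, 17 and 14 in Stat5b-/- libraries. Both mutant lines lay above wt in normalized CPM, by 1.98 ± 0.36 on the log2 scale in Stat5a-/- (adjusted p = 0.000677) and by 1.34 ± 0.38 in Stat5b-/- (adjusted p = 0.0104). The difference between the mutant lines was not called for it (-0.63 ± 0.32, adjusted p = 0.142).

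Trim5 and Trim12a, mouse relatives of the primate retroviral restriction factor TRIM5, changed in Stat5b-/- cells and not detectably in Stat5a-/- cells. Trim5 measured 4.12, 5.25 and 5.60 normalized CPM in wt, 5.59, 5.45 and 3.52 in Stat5a-/- and 12.5, 11.1 and 14.1 in Stat5b-/- libraries. For Trim12a, the values were 13.5, 20.4 and 17.5 in wt, 18.9, 17.5 and 16.7 in Stat5a-/- and 45.3, 35.9 and 43.5 in Stat5b-/-. In both genes the Stat5a-/- libraries overlapped wt and the Stat5b-/- libraries stood above all others. Against wt, Trim5 rose by 1.32 ± 0.19 (adjusted p = 8.06e-05) in Stat5b-/-, and its log2 fold change was -0.03 ± 0.20 (adjusted p = 0.92) in Stat5a-/-. Trim12a rose by 1.28 ± 0.15 (adjusted p = 1.56e-05), beside 0.05 ± 0.16 (adjusted p = 0.841) in Stat5a-/-. Between the mutant lines, Stat5b-/- exceeded Stat5a-/- by 1.36 ± 0.19 in Trim5 (adjusted p = 0.000156) and by 1.23 ± 0.15 in Trim12a (adjusted p = 4.51e-05).

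Trim34a followed the same order at a smaller size, and Trim12c did not. Trim34a measured 4.89, 3.79 and 4.33 normalized CPM in wt, 4.27, 5.37 and 3.97 in Stat5a-/- and 7.41, 8.13 and 8.61 in Stat5b-/- libraries. It rose by 0.90 ± 0.17 in Stat5b-/- (adjusted p = 0.000823), and the Stat5a-/- value was 0.07 ± 0.18 (adjusted p = 0.795). Trim12c, a relative of Trim12a and Trim5, measured 13.1, 17.1 and 17.9 in wt, 26.6, 30.8 and 18.9 in Stat5a-/- and 31.3, 34.4 and 42.0 in Stat5b-/-, and both mutant lines lay above wt. It rose by 1.16 ± 0.18 in Stat5b-/- (adjusted p = 0.000183) and by 0.66 ± 0.18 in Stat5a-/- (adjusted p = 0.0123). Without Stat5a-/- replicate 2 the second fell to 0.49 (adjusted p = 0.0678). The difference between the mutant lines was 0.49 ± 0.18 (adjusted p = 0.0491), and with the replicate number as a block its adjusted p was 0.0734. It was also not called without wt replicates 2 or 3, Stat5a-/- replicates 1 or 3 or Stat5b-/- replicates 2 or 3, where its adjusted p lay between 0.0561 and 0.152, nor with a mean of at least 10 counts (adjusted p = 0.0505) or the 2 genotypes alone (adjusted p = 0.0592).

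**Figure D2:**
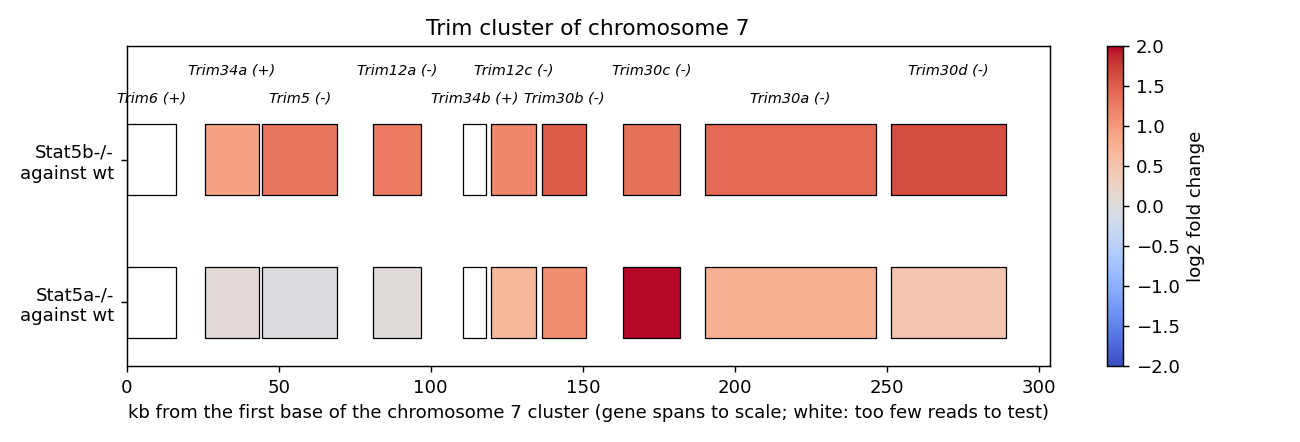
Map of the chromosome 7 cluster to scale, with gene spans in kb from its first base and strand beside each name, coloured by the log2 fold change against wt in Stat5b-/- (upper row) and Stat5a-/- cells (lower row), white where reads were too few to test. All 8 coloured genes are red in the upper row, while Trim34a, Trim5 and Trim12a are close to grey in the lower row.

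The cluster genes are related in sequence, and a read that fits more than 1 place was not counted. Of all 50-base windows in the exons, 59.7% of Trim34a, 36.6% of Trim5, 33.7% of Trim12c and 10.5% of Trim12a also occur in other genes, so the levels of these genes rest on their unique stretches and are uncertain. For Trim30a and Trim30d the shares were 5.98% and 7.49%. Trim34b, with 56.8% shared, is a near copy of Trim34a. At most 10% was shared in 8 of the 13 tested interferon-listed members, and of these 8 all rose in Stat5b-/- against wt. In Stat5a-/- against wt 5 of them rose, and 4 exceeded Stat5a-/- in the direct comparison of the mutant lines. Of all genes, 24.2%, 19.8% and 16.4% were higher in these 3 comparisons. Trim30b and Trim30c are among the 8 and among the 5 that rose in Stat5a-/-. They passed the low-count filter through the mutant libraries, so both counts follow in part from the filter.

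Outside the cluster, Trim21 (chromosome 7 from 102557921 to 102565486), the intracellular antibody receptor, measured 10.6, 12.1 and 9.36 normalized CPM in wt, 16.7, 14.0 and 12.4 in Stat5a-/- and 24.8, 22.7 and 30.8 in Stat5b-/- libraries. The 3 lines did not overlap. Trim21 rose by 1.28 ± 0.16 in Stat5b-/- (adjusted p = 2.55e-05), and in Stat5a-/- the log2 fold change of 0.43 ± 0.16 missed the limit (adjusted p = 0.0591) but passed it with a GC correction (adjusted p = 0.00842) and without the same 3 libraries as for Trim30d (adjusted p = 0.0377 to 0.0465). Trim14, a mitochondrial adaptor of RNA sensing, measured 12.8, 11.8 and 12.8 in wt, 12.9, 11.6 and 19.7 in Stat5a-/- and 32.2, 27.3 and 24.0 in Stat5b-/- libraries. Only the Stat5b-/- values lay apart from wt, by 1.16 ± 0.18 on the log2 scale (adjusted p = 0.000164), with 0.24 ± 0.19 (adjusted p = 0.355) in Stat5a-/-. Exons of other genes on the opposite strand, mainly Nans, cover 38% of the Trim14 exon bases. Counting used neither strand nor an option for overlapping genes, so reads over these bases were not assigned. The Trim14 level rests on its other exon bases.

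Trim25 and Trim26 rose in both mutant lines, and the difference between those lines was not called. Trim25, the ligase that modifies the RNA sensor RIG-I, measured 81.6, 74.1 and 72.6 normalized CPM in wt, 121, 109 and 132 in Stat5a-/- and 116, 118 and 97.7 in Stat5b-/-. The mutant lines overlapped each other and lay above wt, by 0.67 ± 0.11 in Stat5a-/- (adjusted p = 0.000326) and 0.54 ± 0.11 in Stat5b-/- (adjusted p = 0.00133), and their difference was -0.13 ± 0.11 (adjusted p = 0.391). Trim26 on chromosome 17, which acts on interferon production, measured 42.5, 44.7 and 43.8 in wt, 80.2, 84.7 and 86.7 in Stat5a-/- and 80.8, 67.0 and 80.7 in Stat5b-/- libraries. The changes were 0.94 ± 0.10 in Stat5a-/- (adjusted p = 8.29e-06) and 0.80 ± 0.10 in Stat5b-/- (adjusted p = 3.03e-05), and the mutant lines differed by -0.14 ± 0.10 (adjusted p = 0.311). In Stat5a-/- cells the median log2 fold change of the 677 tested genes of chromosome 17 was 0.53 and 56.1% of them were higher than in wt, against 0.14 and 27.9% in Stat5b-/- cells. The part of this in the Trim26 value was not tested.

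Trim56, which takes part in the sensing of viral nucleic acids, was the interferon-listed gene that moved in opposite directions. It measured 29.8, 33.9 and 32.1 normalized CPM in wt, 24.9 to 25.2 in the 3 Stat5a-/- and 42.4, 43.6 and 43.0 in Stat5b-/- libraries, with no overlap between the lines. It rose by 0.43 ± 0.10 in Stat5b-/- (adjusted p = 0.00274) and its log2 fold change in Stat5a-/- was -0.35 ± 0.10 (adjusted p = 0.0133). Without wt replicate 2 the Stat5a-/- value was of like size, -0.31, but was not called (adjusted p = 0.0636). The mutant lines differed by 0.78 ± 0.10 (adjusted p = 5.30e-05).

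In Stat5a-/- cells, 6 interferon-listed members rose, Trim56 fell and 6 were not called. Of the 39 tested members, 11 were higher and 9 lower than in wt (28.2% and 23.1%), where 19.8% and 16.3% of all genes were, and 19 were not called. The median log2 fold change was -0.01, beside 0.01 over all genes. With the limit of 1 on the log2 scale, 3 members were higher and 1 lower, against 7.75% and 6.49% of all genes. The median log2 fold change of the 13 interferon-listed members was 0.48. The 6 that rose were Trim12c, Trim25, Trim26, Trim30a, Trim30b and Trim30c. Trim30b and Trim30c are among them on the same footing as in Stat5b-/-, having passed the filter through mutant libraries. Across the alternatives recounted, again without the test against a log2 fold change of 1, the number of risers ran from 4 to 8.

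Set directly against Stat5a-/- cells, Stat5b-/- cells had 11 members higher and 7 lower of 39, with 16.4% and 17.5% of all genes higher and lower. Past the limit of 1 on the log2 scale these were 4 and 2, where 4.81% and 6.6% of all genes passed. Of the interferon list, 9 were called higher in this comparison, and the median of the 13 was 0.78. Without single libraries the count ran from 7 to 9, and Trim30a (0.66 ± 0.19, adjusted p = 0.0187) lost its call without Stat5a-/- replicate 3 (adjusted p = 0.0537) or Stat5b-/- replicate 3 (adjusted p = 0.0583). The other 4, not called, were Trim25, Trim26, Trim30b and Trim30c. Both comparisons with wt use the same wt libraries, so their values are set side by side and no agreement is drawn from them.

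**Figure D3:**
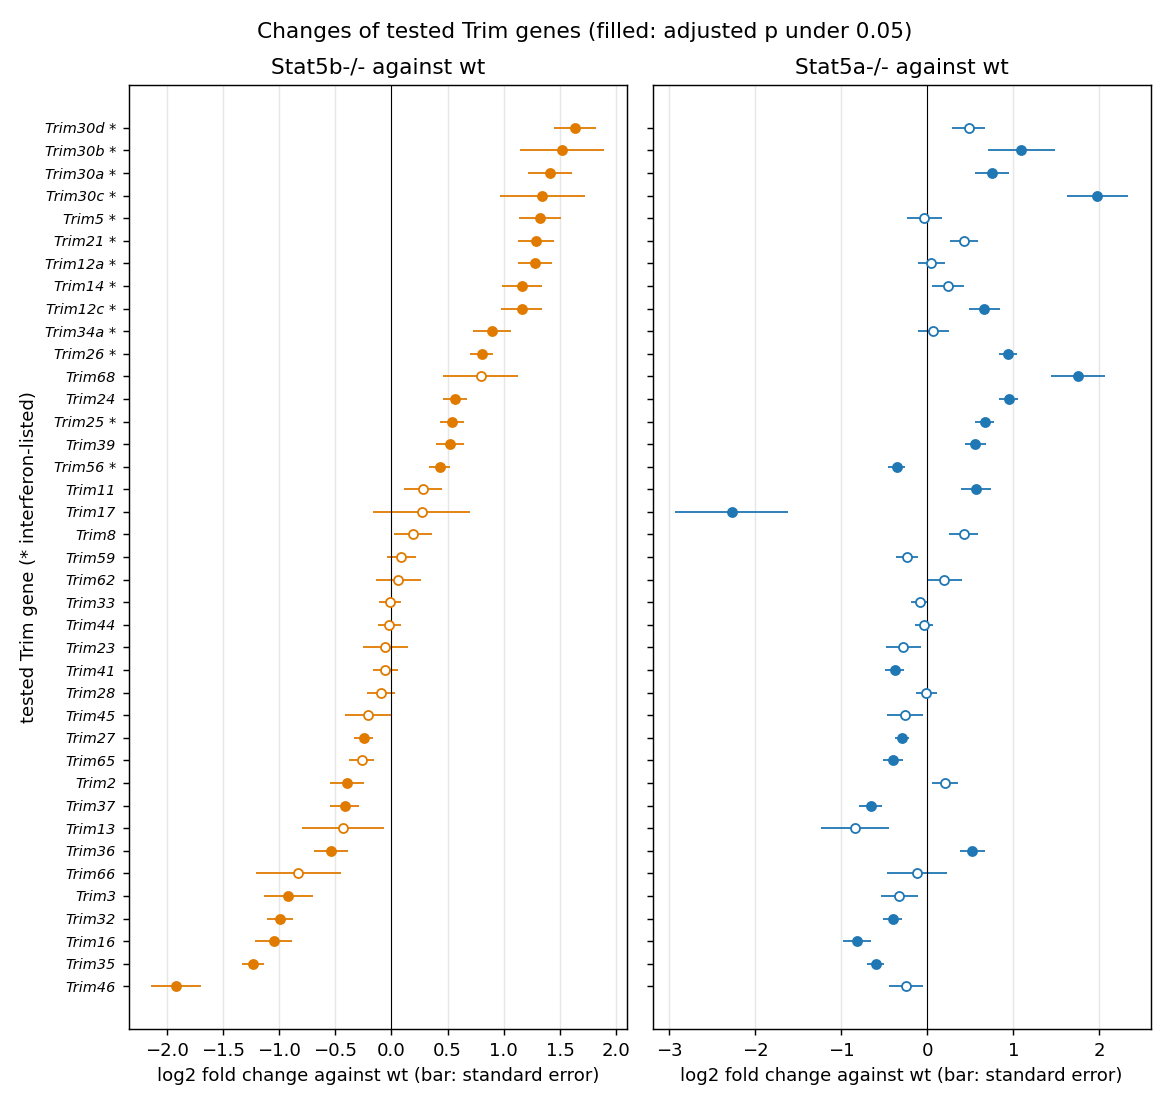
Log2 fold change against wt of the 39 tested members in Stat5b-/- (left) and Stat5a-/- cells (right), in the order of the left panel, with bars of 1 standard error, filled where the adjusted p was under 0.05 and with an asterisk on interferon-listed genes. The 11 genes at the top of the left panel, from Trim30d to Trim26, are all listed, with changes from 1.63 down to 0.80, and the scales of the panels differ.

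The 9 members that fell in Stat5b-/- cells all lay outside the interferon list. The strongest by adjusted p was Trim35 (ENSMUSG00000022043.18, chromosome 14 from 66297031 to 66311424), a RING and PRY-SPRY protein described in haematopoietic cells. It measured 179, 154 and 165 normalized CPM in wt, 108, 106 and 113 in Stat5a-/- and 66.8, 75.3 and 69.2 in Stat5b-/- libraries, with the lines apart. Trim35 fell by 1.23 on the log2 scale in Stat5b-/- (SE 0.10, adjusted p = 3.22e-07) and by 0.60 in Stat5a-/- (SE 0.09, adjusted p = 0.000236), and the mutant lines differed by -0.63 ± 0.10 (adjusted p = 0.000239). Trim46, which bundles microtubules at the start of axons, measured 17.3, 12.8 and 13.6 in wt, 10.6, 10.3 and 16.0 in Stat5a-/- and 4.80, 3.21 and 3.50 in Stat5b-/-. Only the Stat5b-/- libraries lay apart from wt, at -1.92 ± 0.22 (adjusted p = 1.23e-05), and the Stat5a-/- value of -0.25 ± 0.20 (adjusted p = 0.363) passed the limit under a GC correction (-0.43, adjusted p = 0.0176). Trim16, linked to the clearance of damaged membranes, was lower in both mutant lines. Its values were 9.52, 8.64 and 9.59 in wt, 5.03, 4.96 and 5.77 in Stat5a-/- and 4.80, 4.99 and 3.58 in Stat5b-/- libraries, with changes of -0.82 ± 0.16 (adjusted p = 0.00147) in Stat5a-/- and -1.05 ± 0.16 (adjusted p = 0.000179) in Stat5b-/-.

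Members outside the fixed rule for naming, chosen after their values were seen, showed further falls. Trim32, an NHL-repeat ligase of muscle and brain, measured 28.9, 26.8 and 29.7 normalized CPM in wt, 20.6, 21.9 and 22.2 in Stat5a-/- and 15.7, 13.1 and 14.2 in Stat5b-/-. The 3 lines were apart, with -0.40 ± 0.11 (adjusted p = 0.0128) in Stat5a-/- and -0.99 ± 0.11 (adjusted p = 1.26e-05) in Stat5b-/-. Its relatives with NHL repeats, Trim2 and Trim3, fell in Stat5b-/- cells by 0.40 (adjusted p = 0.0461) and 0.92 (adjusted p = 0.00389). Trim37, a ligase that controls centriole number, measured 74.4, 75.5 and 72.7 in wt, 47.6, 49.6 and 44.0 in Stat5a-/- and 43.5, 58.6 and 64.9 in Stat5b-/-, so both lines lay below wt, by -0.42 in Stat5b-/- (adjusted p = 0.0195) and -0.66 in Stat5a-/- (adjusted p = 0.00154). By domain class, 3 of the 4 tested members with NHL repeats or a filamin domain and both tested members with a COS box, a microtubule-binding segment, were lower in Stat5b-/- than in wt, and no member of either class was higher, where 22% of all genes were lower and 24.2% higher. Of 9 tested PRY-SPRY members outside the interferon list, 1 was higher and 2 were lower in Stat5b-/-, and 3 were higher and 5 lower in Stat5a-/- cells, where 19.8% and 16.3% of all genes were. These classes are small, and nothing particular to them is drawn from the counts. Of 4 with a PHD finger and bromodomain, Trim24 alone was called in either line.

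The second COS box gene, Trim36, went in opposite directions in the mutant lines. It measured 6.09, 7.52 and 6.47 normalized CPM in wt, 9.23, 9.68 and 10.1 in Stat5a-/- and 4.59, 4.72 and 4.57 in Stat5b-/- libraries. The log2 fold change was 0.52 ± 0.14 in Stat5a-/- (adjusted p = 0.0108) and -0.54 ± 0.15 in Stat5b-/- (adjusted p = 0.0105). Without wt replicate 2 the second was -0.44 (adjusted p = 0.0536). Trim36 lies on chromosome 18, where the median log2 fold change of the 324 tested genes was 0.43 in Stat5a-/- and -0.04 in Stat5b-/- cells, and the part of this in its rise was not tested. Trim68, a neighbour of Trim21, rose in Stat5a-/- cells by 1.76 ± 0.31 (adjusted p = 0.000631). It had 15, 51 and 19 reads in the wt, 80, 76 and 47 in the Stat5a-/- and 42, 34 and 40 in the Stat5b-/- libraries. In Stat5b-/- cells its change of 0.79 (adjusted p = 0.0688) became 1.41 (adjusted p = 0.00205) without wt replicate 2, the library that stood highest in wt. It was also called with no filter on low counts (adjusted p = 0.0158), with a GC correction (adjusted p = 0.0488) and with that correction and the replicate block (adjusted p = 0.0429). The difference between the mutant lines, -0.96 ± 0.30 (adjusted p = 0.0258), was not called without Stat5a-/- replicates 1 or 2 or Stat5b-/- replicates 1 or 2, where adjusted p lay between 0.0508 and 0.0879. Trim17 was near the detection limit, with 4, 9 and 16 reads in wt, 1, 1 and 2 in Stat5a-/- and 10, 9 and 9 in Stat5b-/-. Its Stat5a-/- change was -2.28 ± 0.66 (adjusted p = 0.0154), and without Stat5a-/- replicate 1 or 2 the adjusted p was 0.0663 or 0.0555.

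**Figure D4:**
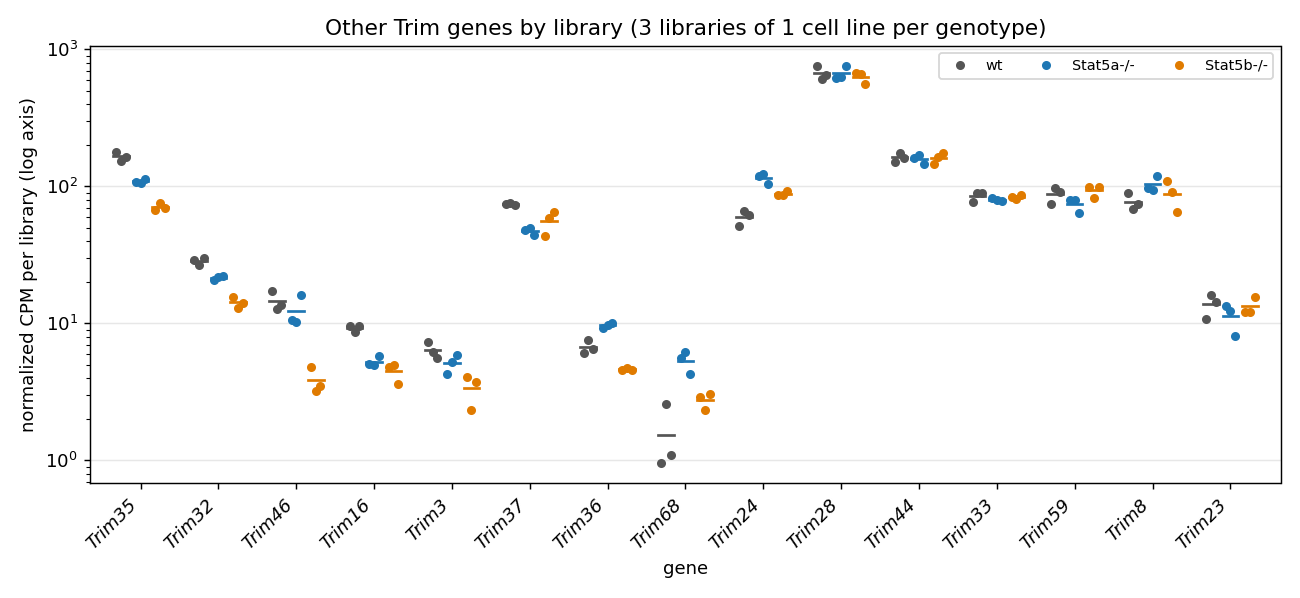
Normalized CPM of 15 members outside the interferon list in each library on a log axis, with points for the 3 libraries of each line (wt grey, Stat5a-/- blue, Stat5b-/- orange) and a bar at their mean. Trim35, Trim32, Trim46, Trim16 and Trim3 are lowest in Stat5b-/- by their means, Trim36, Trim68 and Trim24 are highest in Stat5a-/-, and the lines overlap in Trim28, Trim44 and Trim33.

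Trim24 (TIF1α, a nuclear receptor cofactor) and Trim39 were the risers outside the list that were called in both mutant lines. They and the other genes of this paragraph were named after their values were seen. Trim24 measured 51.7, 65.9 and 61.3 normalized CPM in wt, 119, 122 and 104 in Stat5a-/- and 86.2, 86.4 and 92.3 in Stat5b-/- libraries. It was highest in Stat5a-/-, by 0.95 ± 0.11 over wt (adjusted p = 1.70e-05), and rose by 0.57 ± 0.11 in Stat5b-/- (adjusted p = 0.00105). Trim39 on chromosome 17 rose by 0.56 ± 0.12 in Stat5a-/- (adjusted p = 0.00277), beside a median of 0.53 for its chromosome. In Stat5b-/- it rose by 0.52 ± 0.12 (adjusted p = 0.00355), where that median was 0.14. The part of the chromosome in these values was not tested. Against wt, Stat5a-/- cells also had calls in Trim11 (0.57, adjusted p = 0.0201), Trim41 (-0.38, adjusted p = 0.0172) and Trim65 (-0.40, adjusted p = 0.0143).

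The most abundant member, Trim28, was not called. It measured 754, 610.1 and 651 normalized CPM in wt, 621, 624 and 757 in Stat5a-/- and 673, 664 and 555 in Stat5b-/- libraries. The lines overlapped, and Stat5b-/- differed from wt by -0.09 ± 0.12 on the log2 scale (adjusted p = 0.575) and Stat5a-/- by -0.01 ± 0.12 (adjusted p = 0.965). Its relative Trim33 (TIF1γ) had log2 fold changes of -0.01 ± 0.10 and -0.09 ± 0.10, and Trim44, which lacks a RING domain, of -0.02 ± 0.10 and -0.04 ± 0.10. Trim27, a RING and PRY-SPRY protein of the nucleus, measured 191, 188 and 181 in wt, 153, 151 and 154 in Stat5a-/- and 157, 158 and 157 in Stat5b-/- libraries. These narrow ranges gave a call at -0.25 ± 0.08 in Stat5b-/- (adjusted p = 0.0268) and -0.29 ± 0.08 in Stat5a-/- (adjusted p = 0.0145), which were lost with the replicate number as a block (adjusted p = 0.0797 and 0.0539). The Stat5b-/- call was also lost without any single wt library or Stat5b-/- replicates 2 or 3, with adjusted p between 0.0563 and 0.0726. Both calls were lost with no filter on low counts (adjusted p = 0.106 in Stat5b-/- and 0.0573 in Stat5a-/-). In all, 10 members were called in neither comparison with wt nor between the mutant lines, Trim8, Trim13, Trim23, Trim28, Trim33, Trim44, Trim45, Trim59, Trim62 and Trim66. Trim8, a regulator of cytokine signalling on chromosome 19, was called higher in both lines under a GC correction (adjusted p = 0.0324 in Stat5b-/- and 0.0312 in Stat5a-/-). It was also called in Stat5b-/- without Stat5b-/- replicate 3 (0.38, adjusted p = 0.0473) and in Stat5a-/- without wt replicate 1 or Stat5b-/- replicate 3 (adjusted p = 0.0429 and 0.0191). In Stat5a-/- the call was further made with no filter on low counts and with the 2 genotypes alone (adjusted p = 0.0105 and 0.0274). The median log2 fold change of chromosome 19 in Stat5a-/- cells was 0.41. Trim59 and Trim23 had log2 fold changes of 0.09 ± 0.13 and -0.06 ± 0.20 in Stat5b-/- cells.

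Genes around the family were read from lists of the same pathways. Of 20 interferon signalling and target genes, 19 were higher in Stat5b-/- than in wt and 1 was lower, and in Stat5a-/- 10 were higher and 10 were not called. Some of these genes had hardly any reads in wt and passed the filter through the mutant libraries, so the counts follow in part from the filter. Of all genes, 24.2% were higher and 22% lower in Stat5b-/- cells, and 19.8% were higher in Stat5a-/- cells. Among them, the interferon regulatory factor Irf7 measured 5.08, 6.77 and 6.24 normalized CPM in wt, 13.6, 11.8 and 11.5 in Stat5a-/- and 34.2, 29.5 and 28.3 in Stat5b-/- libraries, an order in which the lines did not overlap, as for Trim30a. Irf1, a further regulatory factor, rose by 1.61 ± 0.10 in Stat5b-/- (adjusted p = 2.20e-08) and by 0.99 ± 0.10 in Stat5a-/- (adjusted p = 2.87e-06). Usp18, which removes ISG15 from proteins, rose by 2.35 ± 0.16 in Stat5b-/- (adjusted p = 7.64e-08), beside 0.44 ± 0.18 (adjusted p = 0.068) in Stat5a-/-. Gbp2, a guanylate-binding protein, was higher in Stat5a-/- than in Stat5b-/- cells, with log2 fold changes of 3.44 and 2.86 against wt. The exception was Bst2 (tetherin) at -1.08 ± 0.13 (adjusted p = 2.14e-05). Of 10 tested genes of the RIG-I-like receptor pathway, in which Trim25 acts, 6 were higher and 1 lower in Stat5b-/- cells, beside the same shares of all genes. Among the 6, Zcchc3 had 4 to 15 reads in wt and passed the filter through the mutant libraries, so this count also follows in part from the filter. Ddx58, which encodes RIG-I, rose by 1.40 ± 0.12 in Stat5b-/- (adjusted p = 6.82e-07) and by 0.56 ± 0.12 in Stat5a-/- (adjusted p = 0.00243). The related RNA sensor Dhx58 rose by 1.71 ± 0.20 (adjusted p = 1.44e-05) and the kinase gene Ikbke by 0.81 ± 0.13 (adjusted p = 0.000224) in Stat5b-/- cells. Rnf135, a further ligase for RIG-I, fell by 0.56 in Stat5b-/- (adjusted p = 0.0133) and by 0.67 in Stat5a-/- (adjusted p = 0.00682), opposite to Trim25. Of TRIM proteins whose genes have another symbol, Pml, the organiser of PML nuclear bodies, rose by 0.41 ± 0.12 in Stat5b-/- (adjusted p = 0.0141) and 0.45 ± 0.12 in Stat5a-/- (adjusted p = 0.00985). Mid1, a microtubule-associated ligase, was called higher in Stat5a-/- (1.58 ± 0.47, adjusted p = 0.0179) on 3 to 7 reads in the wt and 5 to 15 in the Stat5a-/- libraries. It passed the filter through the mutant libraries, so its being tested depends in part on the line in which it was called higher. Mefv and Mid2 were below the filter.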

How the data were processed

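RNA-seq libraries (50 bp single-end, mRNA) of 3 mouse cell lines were analysed, 9 in all. The authors trimmed the reads (Trimmomatic), mapped them with STAR to GENCODE M13 (GRCm38) and deposited raw counts per gene from featureCounts 1.5.1. Per the file headers it ran without options for strand, multi-mapping or overlapping genes. Reads shared by near copies or lying over exons of overlapping genes are therefore dropped, and other antisense reads cannot be told apart. A GENCODE M21 table gave symbols for 50376 of 50686 genes, and RefSeq gave promoters, which matched 53 of the 68 members. Groups followed titles and genotype labels; the description of the knockout samples says wt, in conflict with both.

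Counts were tested with edgeR 4.0.16 in R 4.3.3 (TMM, filterByExpr, glmQLFit and glmQLFTest over all 9 libraries, Benjamini-Hochberg over 13852 genes, called at an adjusted p under 0.05). Each SE was obtained by dividing the size of the log2 change by the root of F. Median library totals were 16569410 (wt), 13120053 (Stat5a-/-) and 14416483 counted reads (Stat5b-/-), and changes of genes with few reads are imprecise. Libraries of 1 line differed beyond sampling noise (chi-square per degree of freedom 4.89 to 30.5) and each was counted. The steps were tested on simulated data with 200 changed genes. Members and lists were chosen with earlier results of these data known. Named by rule were tested interferon-listed members, others past both limits in any comparison, the 5 with the highest level per kb and uncalled members with a mean CPM of 10 or more. Of other lists, at most 4 genes were named, by smallest adjusted p in Stat5b-/- against wt. Bst2, Cd3e, Rag1, Csf1r, Fcgr3, Zcchc3 and members the text marks so were chosen after their values were seen. Alternatives were DESeq2 1.42.0, RLE factors, no filter or a mean of at least 10 counts, the 2 genotypes alone, each library left out, the replicate block, a GC offset (loess span 0.5) without and with that block, and glmTreat at a log2 change of 1. The counts of the interferon list under these, glmTreat excepted, were added after seeing the data.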

Additional observations from a re-analysis of the deposited data

Results flagged for a closer look

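Trim36 and Trim56 moved in opposite directions in the mutant lines. For Trim36, the log2 difference of Stat5b-/- from Stat5a-/- was -1.06 ± 0.15 (edgeR, adjusted p = 0.000136), with every Stat5b-/- library below and every Stat5a-/- library above the wt libraries. For Trim56, it was 0.78 ± 0.10 (edgeR, adjusted p = 5.30e-05), with every Stat5b-/- library above and every Stat5a-/- library below wt.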

How the results depend on the processing

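With 1 cell line a genotype, no setting separates genotype from line. No called value of a named gene changed sign. The members' median log2 fold changes, which lie near 0, did: 0.09 in Stat5b-/- ran from -0.0161 to 0.169 and -0.01 in Stat5a-/- from -0.0887 to 0.0556 without single libraries (below 0 in Stat5b-/- without wt replicate 1, highest in Stat5a-/- without wt replicate 3). The Stat5a-/- median was also above 0 with a mean of at least 10 counts, with the 2 genotypes alone and with either GC offset. In Stat5b-/- against wt, members past the log2 limit of 1 numbered 9 higher and 3 lower; tested against that limit itself, 1 was higher, and leaving out single libraries gave 2 to 5 lower, the highest without Stat5b-/- replicate 1. In Stat5a-/- against wt, 3 higher became 2 to 5 without single libraries, the highest without wt replicate 2, and 1 lower (Trim17) became 0 with a mean of at least 10 counts, with the 2 genotypes alone, in the test against the limit and without wt replicate 3 or Stat5a-/- replicates 1 or 2 (range 0 to 1). Between the mutant lines, 4 higher and 2 lower became 0 and 1 in the test against the limit, and single libraries left out gave 2 to 4 lower, the highest without Stat5b-/- replicate 3. The single interferon-listed fall in Stat5a-/-, Trim56, was 0 without wt replicate 2 (range 0 to 1). Members called numbered 24, 20 and 18, and 22 to 25, 16 to 24 and 15 to 19 without single libraries. The cause of these shifts was not tested.

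Replicate numbers did not pair the libraries: deviations of same-numbered libraries correlated at -0.088 on average over 9 pairs (-0.445 to 0.216), against 0.0438 over 18 other pairs. With the replicate number as a block, 74 of the single-gene values, called or not, stayed on their side of the threshold and 4 lost their call, Trim27 against wt in both lines, Trim30b in Stat5a-/- (1.06, adjusted p = 0.0648) and Trim12c between the mutant lines (0.49, adjusted p = 0.0734). GC content of genes correlated with library deviations at -0.482 to 0.525.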
